A study of Mus musculus with 15 samples.

Results

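The autophagy genes Atg5, Atg7, Atg10, Atg12 and Atg16l1 and the NOD receptor genes Nod1 and Nod2 with their kinase partner Ripk2 were looked up by symbol among the 561 genes of a nanoString immune panel. Of these 8 symbols, 2 were rows of the file, Atg16l1 and Nod2, and all results below concern these genes and the listed genes of the same pathways. Atg5, Atg7, Atg10, Atg12, Nod1 and Ripk2 were not analysed here. RAW macrophages, an established mouse cell line, received LPS, a component of the bacterial outer membrane, together with plasma extracellular vesicles (EVs) for 24 hours. The EVs came from female C57BL/6J mice, 6 to 8 weeks old per the methods, that were sham treated or had received whole-body ionizing radiation (WBIR) at 2 or 9 Gy, and were isolated from plasma by differential centrifugation 3 or 7 days later. The 5 groups were sham EVs, EVs isolated 3 or 7 days after 2 Gy, and EVs isolated 3 or 7 days after 9 Gy, with 3 samples each and 15 in all. All groups shared LPS and EV exposure, so no level without LPS or without EVs was measured in these samples. The cells themselves were not irradiated, and the labels and the methods differ on the number of EVs added and on the lysis reagent.

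Autophagy encloses cytoplasmic material, including invading bacteria, in a double membrane that fuses with the lysosome. ATG16L1 binds the ATG12-ATG5 conjugate, and this complex attaches LC3 family proteins to the lipids of the growing membrane. NOD2 is a cytosolic receptor for muramyl dipeptide from bacterial cell walls, and on binding it recruits RIPK2, which leads to NF-κB and MAP kinase signaling. Activated NOD2 can also bring ATG16L1 to the site where bacteria enter the cell, and variants of both human genes are associated with Crohn's disease. In macrophages both genes belong to the handling of intracellular bacteria.

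Atg16l1 lies at chr1:87756007-87792428 and Nod2 at chr8:88647315-88688474 in GRCm38.p6, by the RefSeq gene table. The promoter of Nod2 is shown because Nod2 is the only NOD receptor gene analysed here. That of Irgm1 was chosen by its result. Scaled to the housekeeping genes, Irgm1 was the only tested autophagy gene called higher than with sham EVs (values below). Of Atg16l1 and Nod2, the RefSeq promoter table held Nod2. Each sequence runs 5′ to 3′ on the gene's strand over 300 bases, from 250 bases before to 50 bases after the start that the promoter table uses, which for Nod2 lies inside the gene interval given above and for Irgm1 at its end on the minus strand. Capitals mark matches to the core of the interferon-stimulated response element, taken as GAAA, any 2 bases and GAAA again.
Nod2, chr8:88647097-88647396, plus strand: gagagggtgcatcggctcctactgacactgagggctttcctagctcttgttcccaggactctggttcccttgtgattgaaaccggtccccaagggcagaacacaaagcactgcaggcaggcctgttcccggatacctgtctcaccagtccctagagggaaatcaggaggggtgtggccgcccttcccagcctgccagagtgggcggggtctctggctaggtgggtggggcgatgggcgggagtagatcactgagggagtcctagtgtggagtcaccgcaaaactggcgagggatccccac
Irgm1, chr11:48871371-48871670, minus strand: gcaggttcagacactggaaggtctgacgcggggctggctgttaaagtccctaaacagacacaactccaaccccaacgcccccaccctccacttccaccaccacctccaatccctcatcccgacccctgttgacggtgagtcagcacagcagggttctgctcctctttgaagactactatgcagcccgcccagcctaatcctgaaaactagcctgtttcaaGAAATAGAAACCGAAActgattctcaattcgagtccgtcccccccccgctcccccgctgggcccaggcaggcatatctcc

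Both strands were searched for 3 motifs. The response element core was found in 3.44% of all 32851 promoters of the table, a κB-type motif of GGG, any 2 bases and TTTCC in 1.63%, and the E-box CACGTG of lysosomal and autophagy genes in 7.15%. The Nod2 promoter held none of the 3 motifs. That of Tollip, the listed autophagy gene with the largest fall, was searched too and also held none, and its sequence is not shown. The Irgm1 promoter held 2 overlapping response element matches, GAAATAGAAA starting 30 bases before that start and GAAACCGAAA starting 24 bases before it, and no match to the other motifs. A match describes the letters of the window and is not a measured binding site.

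Total counts per sample ranged from 453178 to 837995 in the 12 samples outside the group given EVs isolated 3 days after 9 Gy, and from 43176 to 87899 in the 3 samples of that group. The geometric mean of the 14 housekeeping genes, to which all counts were scaled, was 448 to 872 outside that group and 69.2 to 124 in it. Replicates 1 and 2 of that group also carry a day label of 7 beside a title that gives day 3. They were placed by title, and the values without them are given beside the main results they change. Of the 13 macrophage markers listed, 9 were in the file, and all 9 had a mean of at least 20 raw counts in each group except 9 Gy day 3, where 7 did. The summed normalized count of these markers was 13080 to 18890 in the sham group, 7838 to 10100 at 9 Gy day 3 and 7826 to 9623 at 9 Gy day 7. The T cell markers, which should be low in this line, summed to 222.7 to 251.9 in the sham group, 124.6 to 177.1 at 9 Gy day 3 and 120.5 to 152.4 at 9 Gy day 7. The part of depth and of these shifts in the results below was not tested.

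Atg16l1 was measured in every sample, and its level did not differ from sham EVs in any group past the threshold. Its raw counts were 85, 86 and 95 with sham EVs. After exposure to EVs isolated after 2 Gy they were 71, 70 and 70 at day 3 and 93, 82 and 66 at day 7. After exposure to EVs isolated after 9 Gy they were 18, 16 and 18 at day 3 and 124, 133 and 104 at day 7. The raw counts were lowest in the group of lowest total counts and highest in the group of highest housekeeping counts.

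Scaled to the housekeeping genes, Atg16l1 was 95.6, 82.4 and 89.1 normalized counts in the sham group, a mean of 89.0 ± 6.61 (SD, n = 3). It was 80.9, 59.3 and 65.1 at 2 Gy day 3 (68.5 ± 11.2) and 85.6, 71.2 and 70.5 at 2 Gy day 7 (75.7 ± 8.52). It was 133, 79.8 and 74.0 at 9 Gy day 3 (95.5 ± 32.4) and 75.9, 84.8 and 61.0 at 9 Gy day 7 (73.9 ± 12.1). The 9 Gy day 3 group was the widest, and its replicate 1 was the highest of all 15 samples. From high to low the group means ran 9 Gy day 3, sham, 2 Gy day 7, 9 Gy day 7 and 2 Gy day 3, and each neighbouring pair in this order overlapped in its samples. These values are relative to the housekeeping genes. In bulk lysates, a change in all cells and a change in a part of them cannot be told apart.

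**Figure D1:**
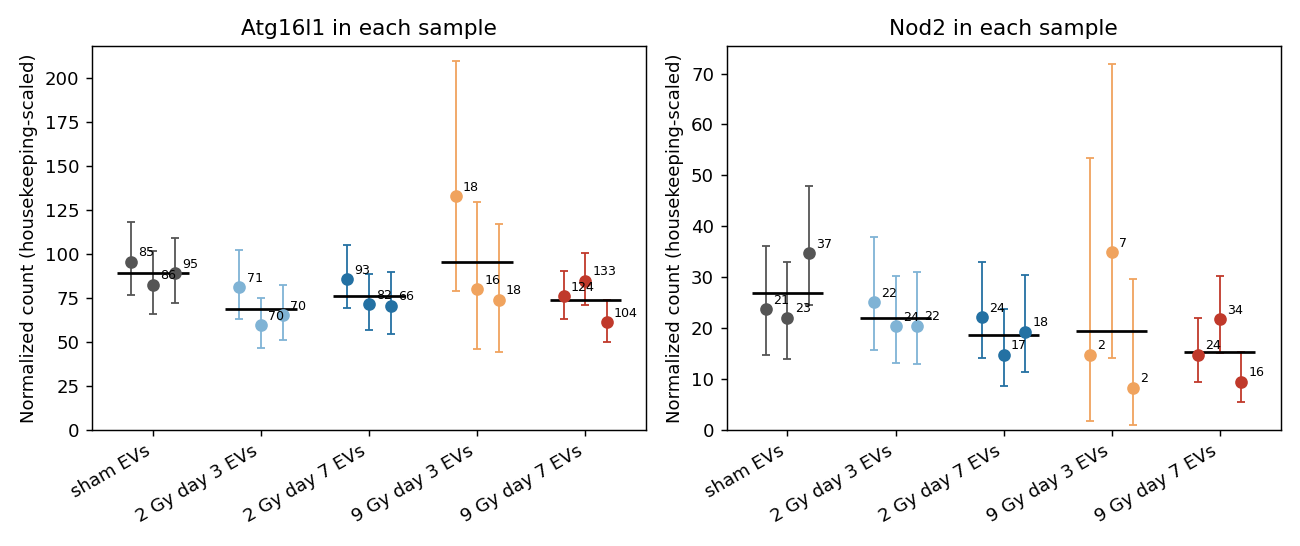
Normalized counts of Atg16l1 (left) and Nod2 (right) in each of the 15 samples, by EV group; points are samples with their raw count beside them, vertical bars are 95% Poisson intervals of that raw count on the same scale, and horizontal lines are group means. Atg16l1 ranged from 59.3 to 133 and the groups overlapped except for 2 Gy day 3 against sham EVs, and the intervals were widest in the 9 Gy day 3 group, where Nod2 rested on 2, 7 and 2 counts.

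With EVs isolated 3 days after 2 Gy, all 3 Atg16l1 samples lay below all sham samples, which 8.18% of the 269 tested genes also did. The log2 fold change was -0.38 (SE 0.20, 95% interval -0.82 to 0.06) and did not pass the threshold (adjusted p = 0.998, edgeR's quasi-likelihood test). The unadjusted p was 0.0731. Of the tested genes, 6.32% had a lower fold change in this comparison, in which edgeR called 0% of genes, 7 had an unadjusted p under 0.05 and DESeq2 called 1. Ratios to single housekeeping genes all share the same Atg16l1 counts and are not independent. Against each of the 14 housekeeping genes taken alone, Atg16l1 was lower than with sham EVs in all 14, with log2 differences from -0.60 to -0.13. At day 7 after 2 Gy its log2 fold change was -0.23 (SE 0.20, adjusted p = 0.944), the samples overlapped those with sham EVs, and edgeR again called 0% of genes, with 1 at an unadjusted p under 0.05 and 0 called by DESeq2. Between both 2 Gy days Atg16l1 differed by 0.15 on the log2 scale (SE 0.20, adjusted p = 0.998).

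At 9 Gy many genes of the panel moved and Atg16l1 did not move past the threshold. With EVs isolated 3 days after 9 Gy, 52.4% of tested genes were called, and the log2 fold change of Atg16l1 was 0.05 (SE 0.23, 95% interval -0.47 to 0.57, adjusted p = 0.946, edgeR's quasi-likelihood test). With EVs isolated 7 days after 9 Gy, 61% were called, and that of Atg16l1 was -0.27 (SE 0.19, 95% interval -0.70 to 0.16, adjusted p = 0.241). These intervals include falls of the size measured with 2 Gy day 3 EVs. The 9 Gy day 3 value turned negative without the samples of conflicting day label (-0.26, adjusted p = 0.581) and without replicate 1 of that group (-0.21, adjusted p = 0.501), and it was -0.01 without sham replicate 2. The summed raw count of Atg16l1 in that group was 52, against 266 with sham EVs, which alone gives a counting error of 13.9%.

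The median tested gene was lower at 9 Gy than with sham EVs, by -0.46 on the log2 scale at day 3 and -0.45 at day 7. Atg16l1 had a higher log2 fold change than 71% of tested genes at day 3 and than 59.9% at day 7, which is a description of its place in the panel and not a test. The choice of scaling set its sign at day 7. With TMM and with DESeq2 size factors, which centre the panel near 0 (medians 0.03 and 0.03), Atg16l1 was 0.22 higher with 9 Gy day 7 EVs than with sham EVs in both (adjusted p = 0.373 and 0.372). Scaled to total counts, Atg16l1 was called higher at day 3 (1.07, adjusted p = 0.00752) and at day 7 (0.85, adjusted p = 0.0069), where the median gene was also higher, by 0.56 and 0.65. Against single housekeeping genes Atg16l1 was higher in 8 of 14 cases at day 3 and in 7 of 14 at day 7, with log2 differences from -1.92 to 0.60 at day 7.

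Comparing both 9 Gy groups with both 2 Gy groups, Atg16l1 was 0.20 higher on the log2 scale (SE 0.15, 95% interval -0.14 to 0.54) and not called (adjusted p = 0.253, edgeR's quasi-likelihood test), while 67.7% of tested genes were called. It was higher than 75.1% of tested genes in this comparison. Without the samples of conflicting day label the value of Atg16l1 fell to 0.04, and with them placed at day 7 to 0.10. The call also turned with the scaling, tried only with those samples at day 3. Atg16l1 passed the threshold as higher under each of the 4 other scalings tried. Its log2 fold change was 0.39 with housekeeping genes of at least 100 counts (adjusted p = 0.0485), 0.64 with DESeq2 size factors (0.0036), 0.66 with TMM (0.00294) and 1.34 with total counts (2.59e-05). Of all 269 tested genes, 59 were called higher and 112 lower with the first of these scalings, 87 and 82 with DESeq2 size factors, 89 and 80 with TMM, and 168 and 36 with total counts. Between both 9 Gy days Atg16l1 differed by -0.32 (SE 0.23, adjusted p = 0.986). This was -0.003 without the samples of conflicting day label and 0.12 with them placed at day 7. The change between days did not differ between the doses past the threshold (interaction -0.47, SE 0.30, adjusted p = 0.993). The interaction was -0.16 without those samples and -0.03 with them placed at day 7. For both day comparisons and the interaction 0% of the 269 genes were called by the adjusted test, and 4, 6 and 4 had an unadjusted p under 0.05 for 2 Gy days, 9 Gy days and the interaction, while DESeq2 called 0 in each. With the replicate number as a block and only both 2 Gy groups in the fit, 27 genes were called between the 2 Gy days, 24 higher and 3 lower, and Atg16l1 was not among them (0.15, adjusted p = 0.518). The same fit of both 9 Gy groups called 0.

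**Figure D2:**
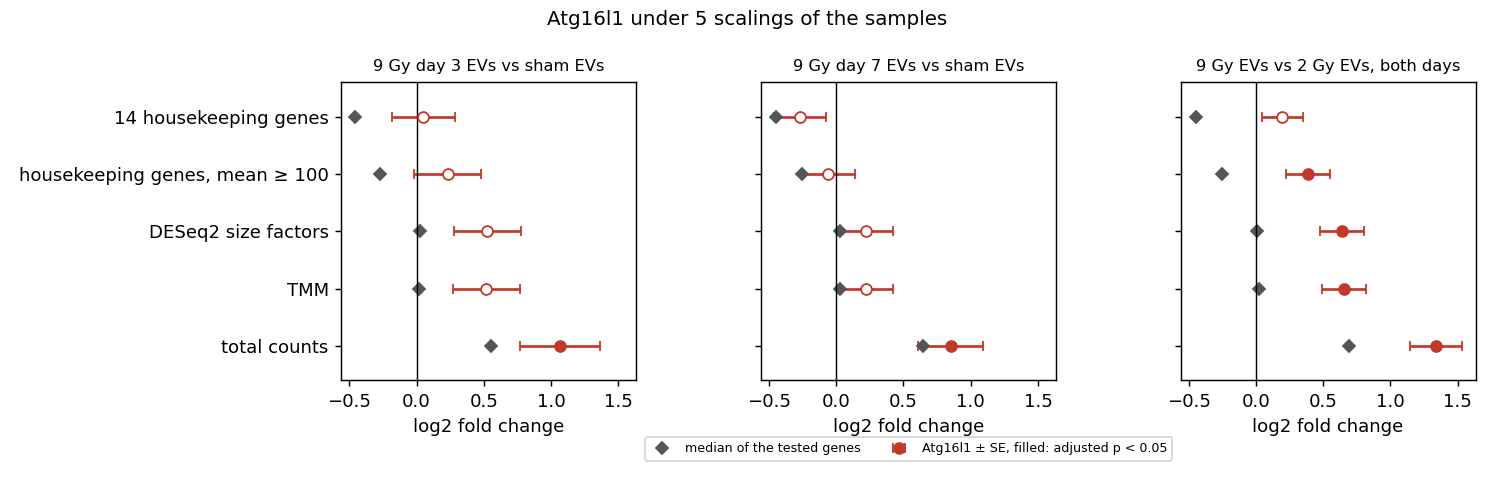
Log2 fold change of Atg16l1 (circles, bars ± SE, filled where the adjusted p is under 0.05) and that of the median tested gene (diamonds) under 5 scalings, for 3 comparisons. Atg16l1 lay above the panel median under each scaling shown, and its value against sham EVs at 9 Gy day 7 ran from -0.27 with the 14 housekeeping genes to 0.85 with total counts.

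Across the 15 samples the normalized count of Atg16l1 spanned 1.16 on the log2 scale, or 2.24-fold, against a median span of 1.59 over the tested genes. Of the 269 tested genes, 79 spanned less. The tested genes whose log2 normalized counts were most like those of Atg16l1 over the 15 samples were Il18rap, a subunit of the IL-18 receptor (Pearson r = 0.793), Bid, a cell death regulator (r = 0.691), and Nfkbiz, a nuclear IκB protein (r = 0.644). These samples share groups, depth and the housekeeping scale, and no test was made. Il18rap had 6 to 9 raw counts at 9 Gy day 3, and Atg16l1 and Bid were both highest in replicate 1 of that group. The likeness of these genes was not computed without that group. Il18rap, Bid and Nfkbiz did not pass the threshold in any of the comparisons above. With 2 Gy day 3 EVs the log2 fold change of Nfkbiz was -0.48 (unadjusted p = 0.0283, edgeR's quasi-likelihood test). All its samples there lay below all sham samples, as did those of 8.18% of tested genes. The paper reports Nfkbiz as reduced in this comparison. Atg16l1 and Nod2 correlated at r = 0.231 over the 15 samples and at 0.638 over the 12 samples outside the 9 Gy day 3 group.

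Nod2 had low counts, near the middle of a panel on which many genes were counted little, with a summed count above that of 50.1 to 54.5% of the 561 rows in each group. Its raw counts were 21, 23 and 37 in the sham group, 22, 24 and 22 at 2 Gy day 3 and 24, 17 and 18 at 2 Gy day 7. They were 2, 7 and 2 at 9 Gy day 3 and 24, 34 and 16 at 9 Gy day 7. With a mean of 19.53 over the 15 samples Nod2 did not pass the filter of 20 counts, and it was tested in a fit of all 561 genes without the filter. The mean without the 9 Gy day 3 group was 23.5, above the filter. Of 19 lymphocyte markers, listed as genes that this line should express little, 3 or 4 in each group had summed counts at or above those of Nod2. The others were below it. Blnk led them with a mean of 136.5 raw counts, above the macrophage marker Csf1r at 69.67, and was thus not low in these cells. The median marker summed to 33 counts in the sham group against 81 for Nod2, to 4 against 11 at 9 Gy day 3 and to 25 against 74 at 9 Gy day 7.

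On the housekeeping scale Nod2 was 23.6, 22.0 and 34.7 normalized counts in the sham group (26.8 ± 6.90, SD, n = 3). It was 25.1, 20.3 and 20.5 at 2 Gy day 3 (22.0 ± 2.70) and 22.1, 14.8 and 19.2 at 2 Gy day 7 (18.7 ± 3.69). It was 14.8, 34.9 and 8.22 at 9 Gy day 3 (19.3 ± 13.9) and 14.7, 21.7 and 9.38 at 9 Gy day 7 (15.3 ± 6.17). The sham group had the highest mean and the 9 Gy day 7 group the lowest, and each neighbouring pair of groups in the order of means overlapped in its samples. Only the 9 Gy day 7 group lay wholly below the sham samples, with its highest sample at 21.7 and the lowest sham sample at 22.0.

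In the fit without the filter, Nod2 was lower with 9 Gy day 7 EVs than with sham EVs by a log2 fold change of -0.82 (SE 0.30, adjusted p = 0.0373, edgeR's quasi-likelihood test), a ratio of 0.564. In that fit 43.3% of genes were called in this comparison, and 51.2% of all rows had groups that did not overlap. The call was lost with each other scaling tried, at -0.62 with housekeeping genes of at least 100 counts (adjusted p = 0.129), -0.25 with TMM (0.612), -0.23 with DESeq2 size factors (0.65) and 0.29 with total counts (0.574). It was also lost with DESeq2's test (adjusted p = 0.0587), with only the groups compared in the fit (0.0754), and without 9 Gy day 7 replicate 1 (0.0845) or 3 (0.122) or sham replicate 3 (0.193).

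With 9 Gy day 3 EVs the log2 fold change of Nod2 against sham EVs was -0.50 (SE 0.50, adjusted p = 0.576, fit without the filter), on a summed count of 11 in 3 samples (exact Poisson 95% interval 5.49 to 19.7, which covers counting error only) against 81 with sham EVs, in a comparison where 22.8% of the 561 genes were called. It moved to -1.70 without the samples of conflicting day label (SE 0.89, adjusted p = 0.321), to -1.33 without replicate 2 of that group and to -0.02 without its replicate 3, none called, and it was 0.52 with total counts (adjusted p = 0.607). With 2 Gy EVs it was -0.30 (SE 0.31, adjusted p = 0.999) at day 3 and -0.53 (SE 0.32, adjusted p = 0.985) at day 7, where 0% and 0.178% of the 561 genes were called. With 1 sample left out it ran from -0.43 to -0.06 at day 3 and from -0.67 to -0.29 at day 7, never called. Between 9 Gy and 2 Gy EVs it was -0.24 (SE 0.30, adjusted p = 0.553), where 38% were called, and the sign turned with TMM, DESeq2 size factors and total counts (0.18, 0.22 and 0.89, none called). Without the samples of conflicting day label it was -0.84 (adjusted p = 0.223), and it was -0.66 without 9 Gy day 3 replicate 2 and -0.0049 without replicate 3 of that group. Between days Nod2 differed by -0.23 at 2 Gy (adjusted p = 0.994) and -0.33 at 9 Gy (adjusted p = 0.98), with an interaction of -0.10 (adjusted p = 0.993), and 0% of the 561 genes were called in these 3 comparisons. Without the samples of conflicting day label the 9 Gy difference between days turned to 0.87 and the interaction to 1.10, with those samples placed at day 7 to 0.97 and 1.19, and without 9 Gy day 3 replicate 2 to 0.51 and 0.74, none called.

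Other genes of the pathways around Atg16l1 and Nod2 were read from 3 lists. Of 39 other autophagy genes, 4 were in the file, all 4 were tested, and most of the core machinery was not analysed here. With 2 Gy EVs 0 of the 4 were called at either day, and 0 had an unadjusted p under 0.05. At 9 Gy day 3, 1 was higher and 2 lower, where 11.2% of all tested genes were called higher and 41.3% lower. At 9 Gy day 7, 1 was higher and 3 lower, where 11.9% were called higher and 49.1% lower. Without the samples of conflicting day label 0 were higher and 1 lower at day 3, beside 8 higher and 70 lower of all 269 tested genes. The split turned with the scaling. TMM gave 1 higher and 1 lower at both days, beside 59 and 60 of all 269 genes at day 3 and 75 and 76 at day 7. Total counts gave 2 higher and 1 lower at day 3 and 1 higher and 1 lower at day 7, beside 121 and 33 of all genes and 143 and 31. On the housekeeping scale the higher gene was Irgm1 and the largest fall was that of Tollip, both in the plot of these genes by sample.

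Irgm1, an interferon-inducible GTPase that takes part in autophagy of intracellular bacteria, was 211, 175 and 158 normalized counts in the sham group. It was 642, 509 and 222 at 9 Gy day 3 and 372, 450 and 222 at 9 Gy day 7. All 6 samples at 9 Gy were above all sham samples, with replicate 3 the lowest in both groups and close to the highest sham sample, and 11.9% of tested genes at day 3 and 12.6% at day 7 likewise lay wholly above the sham samples. Its log2 fold change was 1.31 at day 3 (SE 0.33, adjusted p = 0.00515, edgeR's quasi-likelihood test) and 0.94 at day 7 (SE 0.31, adjusted p = 0.0184), and it was called higher at both days under all 5 scalings. At day 3 the value was 0.29 and no longer called without the samples of conflicting day label (adjusted p = 0.581), and at day 7 its call held in 12 of 15 fits with 1 sample left out, with the largest adjusted p without replicate 2 of that group (0.0871).

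Tollip, an adaptor that restrains Toll-like receptor signaling and can act as a receptor for ubiquitinated cargo in autophagy, was 1010, 821 and 1014 normalized counts in the sham group. It was 185, 224 and 243 at 9 Gy day 3 and 203, 223 and 297 at 9 Gy day 7. Each sample at 9 Gy was below each sham sample by a wide margin, as were 43.9% of tested genes at day 3 and 49.1% at day 7 by any margin. The log2 fold change was -2.11 at day 3 (SE 0.17, adjusted p = 4e-07) and -1.97 at day 7 (SE 0.16, adjusted p = 2.9e-07), called lower under all 5 scalings and in each of the 15 fits with 1 sample left out. It was also lower without the samples of conflicting day label at day 3 (-1.97, adjusted p = 0.000291).

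**Figure D3:**
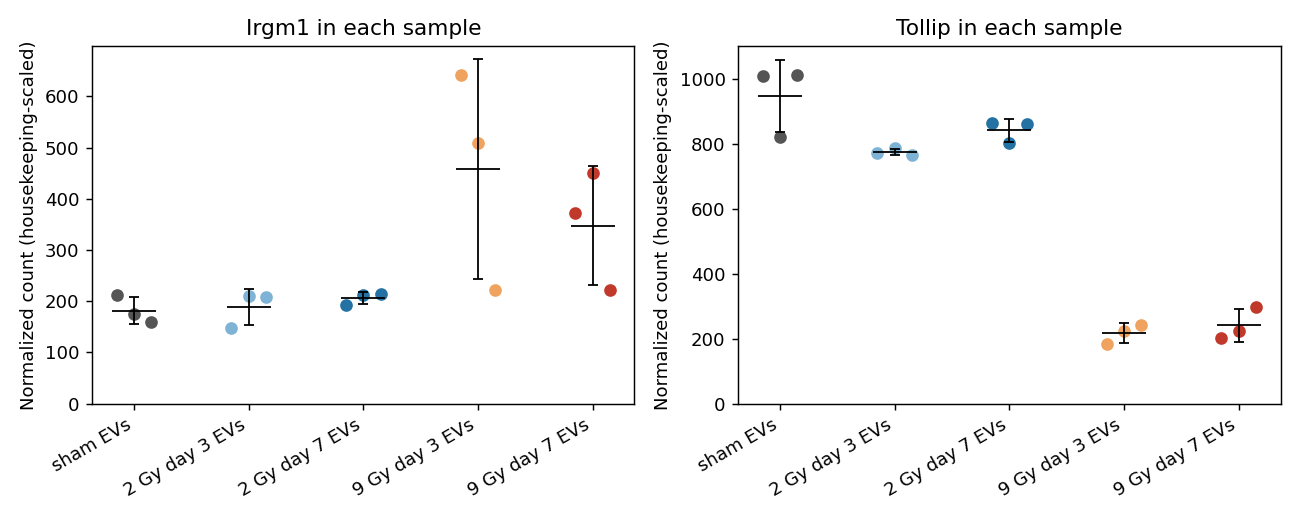
Normalized counts of Irgm1 (left) and Tollip (right) in each of the 15 samples by EV group; points are samples, horizontal lines are means and vertical bars are ± SD of 3 samples. Irgm1 was 222 to 642 in the 6 samples at 9 Gy against 158 to 211 with sham EVs, and Tollip 185 to 297 against 821 to 1014.

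Bcl2, which binds Beclin 1 and restrains autophagy and cell death, was lower at 9 Gy day 3 (-1.41, adjusted p = 0.0202) on 4, 1 and 4 raw counts, and at day 7 (-0.90, adjusted p = 0.0118), and neither call was kept with TMM (adjusted p = 0.118 and 0.202). With 1 sample left out its calls held in 12 of 15 fits at day 3 (largest adjusted p = 0.115, without 9 Gy day 3 replicate 2) and in 14 of 15 at day 7 (0.0621, without sham replicate 1), and its day 3 call was lost without the samples of conflicting day label (-1.34). Tbk1, a kinase of autophagy receptors that is also on the NOD list and lies outside the rule for named genes as the fourth of its list, was lower at day 7 (-0.64, adjusted p = 0.0362) and at -0.11 at day 3 (adjusted p = 0.747), where it ranged from -0.31 to 0.21 with 1 sample left out and was -0.91 (adjusted p = 0.0805) without the samples of conflicting day label. Its day 7 call was not kept with TMM (adjusted p = 0.589) and held in 11 of 15 fits with 1 sample left out.

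The NOD-RIPK2 signaling list holds 35 genes, from the ubiquitin ligases and kinases that RIPK2 engages to NF-κB and its inhibitors, of which 22 were in the file and 19 were tested. With 2 Gy EVs 0 of 19 were called at either day, and 1 gene at day 3 had an unadjusted p under 0.05, the NF-κB inhibitor gene Nfkbia at -0.50. At 9 Gy day 3, 2 were higher and 3 lower, and at 9 Gy day 7, 1 was higher and 6 lower, beside 11.2% higher and 41.3% lower of all tested genes at day 3 and 11.9% and 49.1% at day 7. The median log2 fold changes of the list were -0.11 and -0.27 against panel medians of -0.46 and -0.45. The split turned with the scaling. TMM gave 5 higher and 2 lower at both days, beside 59 and 60 of all 269 genes at day 3 and 75 and 76 at day 7. Total counts gave 12 higher and 1 lower at day 3 and 11 higher and 1 lower at day 7, beside 121 and 33 of all genes and 143 and 31. Without the samples of conflicting day label 0 list genes were higher and 4 lower at day 3, beside 8 and 70 of all 269 genes.

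Irf7, an interferon regulatory factor, showed the largest fall of the tested NOD list genes. It was 5232, 4458 and 5069 normalized counts in the sham group, 583, 833 and 1283 at 9 Gy day 3 and 748, 812 and 1316 at 9 Gy day 7. Its log2 fold changes were -2.44 (SE 0.26, adjusted p = 4.63e-06) and -2.36 (SE 0.25, adjusted p = 4.61e-06), called lower under all 5 scalings. Of the inhibitors of NF-κB, Nfkbia was lower by -0.89 (adjusted p = 0.000212) and -0.94 (8.65e-05), and Tnfaip3, which encodes the ubiquitin-editing enzyme A20, by -0.81 (0.0083) and -0.74 (0.00413). With total counts both turned to values between 0.11 and 0.37 that were not called, and with TMM Nfkbia kept its call at both days (-0.42 and -0.45) while Tnfaip3 did not (adjusted p = 0.195 and 0.227).

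Traf5, an adaptor of the TRAF family, rose at both days (0.84, adjusted p = 0.0223, and 0.53, adjusted p = 0.0444) and was called higher under all 5 scalings. It had only 8, 15 and 9 raw counts with 9 Gy day 3 EVs, and its value there was 0.25 without the samples of conflicting day label (adjusted p = 0.756). With 1 sample left out its call held in 12 of 15 fits at day 3 (largest adjusted p = 0.282, without 9 Gy day 3 replicate 2) and in 6 of 15 at day 7 (0.189, without 9 Gy day 7 replicate 2). Outside the rule for named genes and chosen after their values were seen, Rela, the NF-κB subunit, was called higher at day 3 (0.55), and Card9 (-0.69) and Ikbkg (-0.61), adaptors of NF-κB signaling, were called lower at day 7. The call of Rela held in 10 of 15 fits with 1 sample left out (largest adjusted p = 0.115, without 9 Gy day 3 replicate 2) and was lost without the samples of conflicting day label (0.40, adjusted p = 0.355). With TMM the day 7 calls of Card9 (-0.20, adjusted p = 0.386) and Ikbkg (-0.12, adjusted p = 0.641) were lost, and that of Ikbkg held in 13 of 15 fits with 1 sample left out. The day 3 values of Card9 and Ikbkg were -0.34 and -0.33, not called, and 0.22 and 0.12 without the samples of conflicting day label. With 1 sample left out, Card9 ran from -0.84 to -0.08 at day 3 and was called in 1 of 15 fits. Ikbkg ran from -0.72 to -0.04 and was called in 0.

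Of 24 other NOD-like receptor and inflammasome genes, 4 were in the file and 3 were tested. Ciita, the MHC class II transactivator and the only other NOD-like receptor gene among them, had raw counts of 1 to 22 and was not tested. Il1b, which encodes IL-1β, was 4709, 6399 and 3786 normalized counts in the sham group, 66.4, 59.8 and 485 at 9 Gy day 3 and 81.4, 61.9 and 506 at 9 Gy day 7. Replicate 3 stood apart from the others in both 9 Gy groups and was still far below sham EVs. The log2 fold change was -4.53 (SE 0.86, adjusted p = 0.000643) and -4.52 (SE 0.83, adjusted p = 0.000368), called lower under all 5 scalings. With 1 sample left out both calls held in 15 of 15 fits, from -6.31 (without 9 Gy day 3 replicate 3) to -4.09 at day 3 and from -6.11 (without 9 Gy day 7 replicate 3) to -4.08 at day 7. Without the samples of conflicting day label, which leaves replicate 3 alone at 9 Gy day 3, the value there was -3.36 (adjusted p = 0.041). Il18, which encodes a second cytokine that caspase-1 cleaves, was lower at day 7 (-1.03, adjusted p = 0.00697) and at -0.77 at day 3 (adjusted p = 0.0511). Casp1, the inflammasome protease gene, was lower at day 3 (-0.61, adjusted p = 0.0187), in 12 of 15 fits with 1 sample left out (largest adjusted p = 0.0887, without 9 Gy day 3 replicate 2), and at -0.39 at day 7 (adjusted p = 0.0805). The day 3 call of Casp1 was lost without the samples of conflicting day label (-0.64, adjusted p = 0.111) and with housekeeping genes of at least 100 counts (-0.43, adjusted p = 0.0854). With TMM neither Il18 nor Casp1 was called at either day, and with total counts Casp1 was called higher at day 7 (0.72, adjusted p = 0.00958). With 2 Gy EVs 0 of the 3 genes were called at either day.

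**Figure D4:**
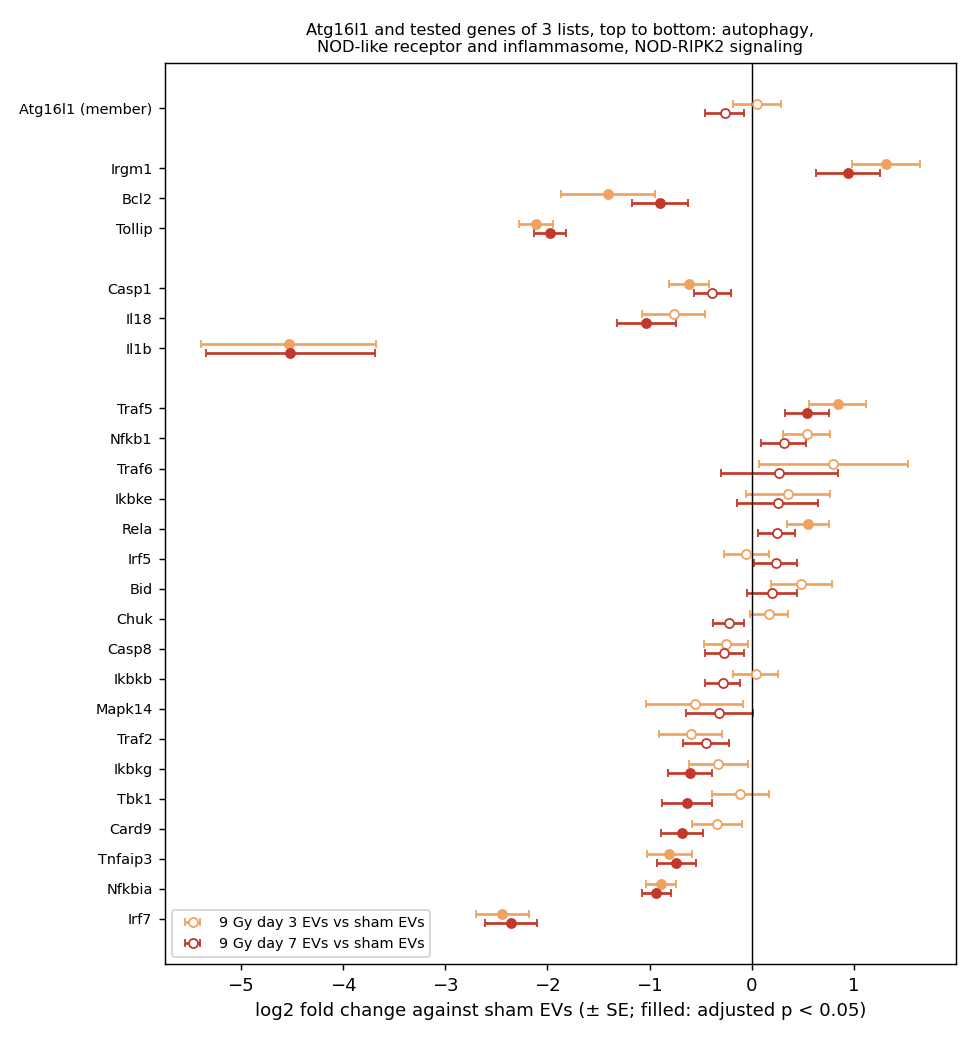
Log2 fold changes against sham EVs (± SE, filled where the adjusted p is under 0.05) at 9 Gy day 3 and day 7 for Atg16l1 and the tested genes of the 3 lists except 1 NOD list gene, with Tbk1, which is on 2 lists, drawn once under NOD-RIPK2 signaling. Atg16l1 lay at 0.05 and -0.27, between Irgm1 at 1.31 and 0.94 and Tollip at -2.11 and -1.97.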

How the data were processed

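The nanoString nCounter Mouse Immunology Panel counts barcoded probes that hybridize to mRNA and involves no amplification step. The authors deposited raw counts of 561 genes in 15 samples, as whole numbers with a lowest value of 1, and the control probes were not used here. These counts precede the normalization in nSolver that the methods name. No 2 samples had identical values. Nothing states that the 3 samples of a group came from separate cultures, so p-values measure only the spread between these samples.

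Samples were grouped by title. Counts were divided by the geometric mean of 14 housekeeping genes, relative to its mean with sham EVs, which gives the normalized count. Those genes whose mean reached 20 counts, 269 of 561, entered one edgeR quasi-likelihood fit of all 5 groups (edgeR 4.0.16, R 4.3.3, prior count 0.125), with Benjamini-Hochberg adjustment over all genes tested and a threshold of 0.05. A gene past it is called higher or lower. The SE of each log2 fold change equals its size over the root of F, and 95% intervals used a t distribution with 10 residual degrees of freedom. Nod2 was read from a fit without the filter. Each irradiated group was set against sham EVs (all sharing the same sham samples), 9 Gy against 2 Gy and day 7 against day 3 at each dose, with the dose by day interaction. The script was tested on simulated data.

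The genes and lists were chosen with earlier results of these data known. The values of 1 NOD list gene are not reported here. Besides Atg16l1 and Nod2, the genes named were, per list and comparison of a 9 Gy group with sham EVs, the 3 called genes with the largest change, any called at 2 Gy, and the 3 genes most correlated with Atg16l1. Alternatives were TMM, total counts, only housekeeping genes whose mean reached 100 counts, DESeq2 size factors, DESeq2 1.42.0, counts under 20 set to 20, no filter, only the groups compared, the replicate block, both treatments of the 2 samples of conflicting day and each sample left out. A mean of at least 10 counts, the unfiltered alternatives for Nod2 and the block within the groups compared were added after seeing the data. Samples of the same replicate number deviated together between the 2 Gy groups (correlations 0.779, 0.365 and 0.534) and between the 9 Gy groups (0.33, 0.404 and 0.717), and not for every number between other groups. What the numbers share is not given in the sources used here.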

Additional observations from a re-analysis of the deposited data

How the results depend on the processing

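The number of member genes called was 0 in each of the 7 comparisons and in the interaction, and stayed 0 in 210 of 218 repeats under other settings, including every fit with 1 sample left out (0 to 0), in which Atg16l1 was the only member tested. Without the filter, Nod2 at 9 Gy day 7 was called in 12 of 15 such fits. It was 1 in the other 8, which were 9 Gy day 3 against sham EVs with total counts, 9 Gy day 7 against sham EVs with total counts (Atg16l1), with no filter (Nod2) and with a mean of at least 10 counts (Nod2), and 9 Gy against 2 Gy EVs with TMM, total counts, housekeeping genes of at least 100 counts and DESeq2 size factors (Atg16l1). The change of sign of Atg16l1 at 9 Gy day 7 with total counts (0.85) and of Nod2 there (0.29) goes with the median gene, which moved from -0.45 to 0.65. With counts under 20 set to 20, Nod2 was called at 1.94 at 9 Gy day 3 against sham EVs, 0.96 for 9 Gy against 2 Gy EVs, -2.70 between the 9 Gy days and -2.59 for the interaction, since low counts of shallow samples are raised by construction. With the replicate number as a block, 0 member genes were called with the filter, and the pairing changed no call of Atg16l1 or Nod2, also in the fits of only the groups compared, where 27 genes in place of 0 were called between the 2 Gy days. The blocked day 7 against day 3 values of Atg16l1 were 0.15 at 2 Gy and -0.32 at 9 Gy. Values of Atg16l1 with 2 Gy EVs stayed below sham EVs in all 27 alternatives at either day, from -0.51 to -0.29 at day 3 and from -0.33 to -0.18 at day 7. Among all genes, the split of calls at 9 Gy day 3 was 30 higher and 111 lower, against 59 and 60 with TMM and 121 and 33 with total counts, and it was 32 and 132 against 75 and 76 and 143 and 31 at day 7. Without the 2 samples of conflicting day, 78 genes were called at 9 Gy day 3 in place of 141. Depth limits the 9 Gy day 3 group most, with 52 counts of Atg16l1 and 11 of Nod2 over 3 samples.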
